A study of Sus scrofa with 6 samples.

Results

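The amino acid transporter genes of pig fibroblasts were compared before and after reprogramming. The members were all rows of the expression table whose gene name belonged to the solute carrier (SLC) families 1, 3, 6, 7, 36, 38 and 43, which gave 49 of 18007 genes. RNA-seq was available for 3 lines of pig embryonic fibroblasts (PEF5, PEF7 and PEF8) and for the induced pluripotent stem cells made from each of them (piPSC5, piPSC7 and piPSC8), with 1 library per line. The PEFs came from ear tips of embryos at embryonic day 90 of a Large White boar, written Longwhite in the labels, and a Meishan sow, and stand for the cells before transduction. The piPSCs carried lentiviral OCT4, SOX2, KLF4 and MYC under a doxycycline-dependent promoter with its transactivator, and were grown with doxycycline in LF2i medium on mouse feeder cells after colonies had been picked. Each piPSC line is therefore 1 sample of a picked, factor-dependent culture, and how many fragments came from the feeder cells cannot be seen in these values.

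Amino acid transporters move amino acids across the plasma membrane and the membranes of lysosomes and vesicles. The SLC1, SLC6 and SLC38 carriers mostly use the sodium gradient to concentrate their substrates, while the SLC7 carriers mostly exchange one amino acid for another, and several SLC7 light chains reach the membrane only when joined to a heavy chain of family SLC3. Cells adjust these genes to supply through the transcription factor ATF4, and uptake of leucine, arginine and glutamine is read by the growth kinase complex mTORC1.

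Depth ran from 11010629 to 17836510 fragments per library. Values are FPKM, the fragments of a gene scaled to its length and to the library's total, so that levels can be set side by side between genes. Fibroblast markers separated the groups, with a sum over 8 genes of 4295 to 6139 FPKM in PEFs and 129 to 217 FPKM in piPSCs. Of 10 pluripotency markers, 6 could be analysed here. NANOG, SALL4, ESRRB and UTF1 stood under 1 FPKM in every piPSC library. In piPSC5, piPSC7 and piPSC8, SOX2 stood at 3.01, 2.49 and 0.129 FPKM and LIN28B at 2.51, 0.281 and 8.90 FPKM. How fragments of the lentiviral SOX2 were counted is not given in the sources used here. Of the 2 markers that were tested, SOX2 and LIN28B, limma called 0 on log2(FPKM + 1), 2 at an unadjusted p under 0.05 and 2 with limma's voom on fragments. Of 5 epithelial markers, EPCAM, CDH1, KRT8 and KRT18 were under 1 FPKM in all 6 libraries, while CLDN6 stood at 11.0 to 36.2 FPKM in PEFs and at 0.365 to 7.55 FPKM in piPSCs, and the list summed to 11.4 to 36.9 and 0.515 to 8.57 FPKM. The neural and muscle markers are given beside SLC7A8. The study describes its lines as male. The Y-linked DDX3Y had 3439 fragments in PEF8, 4207 in piPSC8 and 0 in the libraries of lines 5 and 7. The Y-linked EIF1AY, KDM5D and UTY had 77 to 551 fragments in PEF8 and 110 to 456 in piPSC8. In the libraries of lines 5 and 7 they had at most 1. These values do not bear out the male sex of lines 5 and 7, which was not tested further. Calls of named genes that were lost without line 8 are given with their value below. In bulk RNA, fewer cells of a type and less RNA per cell cannot be told apart.

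After a filter at a mean of 0.5 FPKM, 34 of the 49 members were tested, and 15 were not. A gene counted as called when limma on log2(FPKM + 1) gave a change of 2-fold or more with an adjusted p under 0.05, and every fold change below is on that scale, as piPSCs minus PEFs. Among the tested members, 8 rose and 7 fell in piPSCs. Of all 12428 genes tested, 36.8% were called, with 20.2% higher and 16.7% lower, and the members stood at 44.1%, with 23.5% higher and 20.6% lower. The median log2 fold change was 0.03 over the tested members and 0.20 over all tested genes. When each library was rescaled to the median ratio over genes, the medians were -0.20 and -0.01, and calls of higher expression made up 42.8% of all called genes in place of 54.8%. When rescaled to an equal sum, the share was 41.4%.

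Of the 15 called members, 10 were called in each of 16 alternative fits. These were all 7 members that fell, and SLC6A15, SLC7A2 and SLC7A9 among those that rose. The other 5 that rose lost the call in at least 2 of the fits, and all 5 lost it when both libraries of line 8 were left out. In all 15, the PEF and piPSC libraries did not overlap. Over the 34 tested members, called or not, this held for 20 (58.8%), with 29.4% higher and 29.4% lower in piPSCs. Of all tested genes it held for 64.1%, 37.3% with the piPSCs higher and 26.8% with the piPSCs lower. The plot of called members by library shows both sets.

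**Figure D1:**
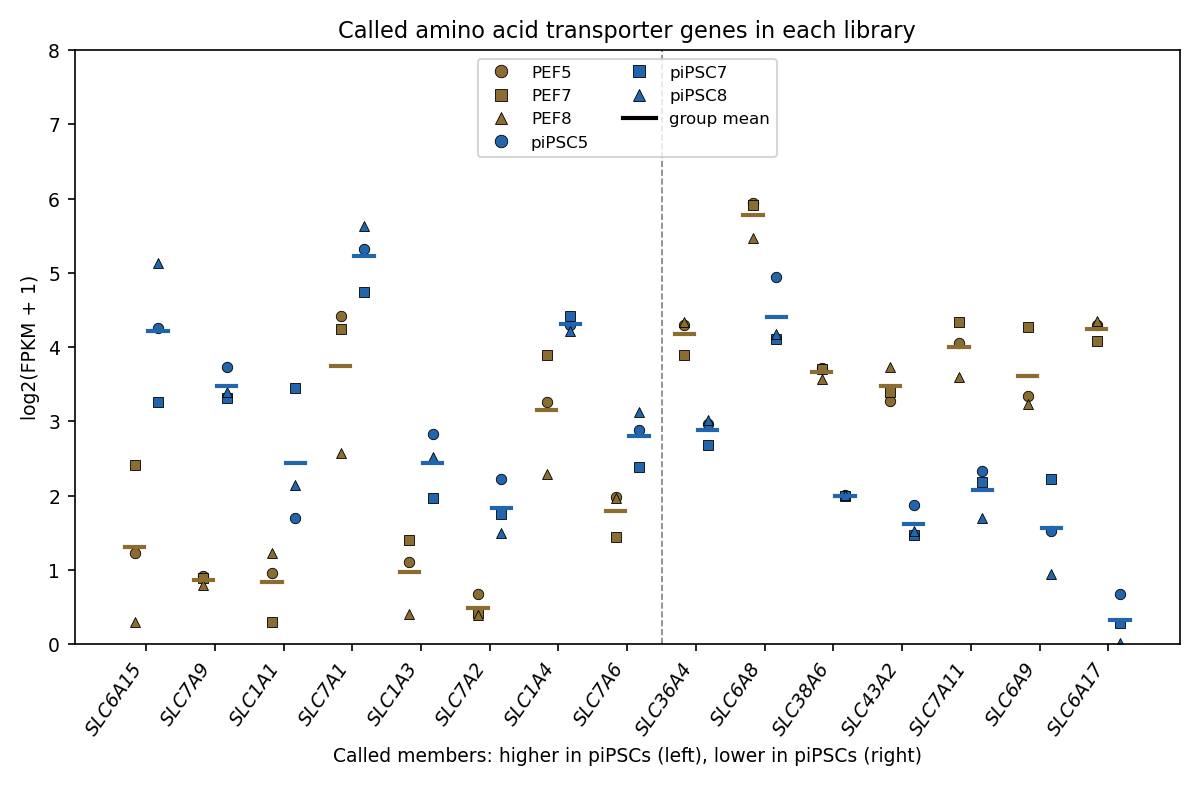
Level of the 15 called members as log2(FPKM + 1) in each library, with PEFs in brown and piPSCs in blue, the line given by the symbol and the group mean by a bar. No member has overlapping groups, and among the 8 that rose PEF8 is the lowest PEF in 6.

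Promoters were read for 48 of the 49 members as the 300 bases before the RefSeq start on Sscrofa11.1. SLC7A5 is listed there as a non-coding gene and had none. A set of 3 motifs, known from amino acid supply, oxidative stress and MYC, was searched on both strands. TGATGNAA, the core of the element bound by ATF4 with C/EBP proteins, was found in 2 members (4.17%) against 3.06% of 19531 promoters. TGACNNNGC, the antioxidant response element, was found in 8 members (16.7%) against 11.6%, and CACGTG, the E-box, in 5 (10.4%) against 7.31%. The stretches below are the called members that hold the first or the last motif, shown so that the letters can be read beside the values of these genes. The other members with CACGTG were under the filter, and of these SLC38A3 had fewer fragments in piPSCs, SLC1A7 more, and SLC43A1 at most 3 in every library. The called members with TGACNNNGC were SLC1A3, SLC1A4 and SLC7A6, which rose. Capitals mark the motif on either strand, and every stretch is written 5′ to 3′ on the plus strand, on which all of these genes lie.
SLC7A11, chr8:88608036-88608065, fell in piPSCs: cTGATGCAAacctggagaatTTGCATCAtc
SLC6A9, chr6:167266901-167266930, fell in piPSCs: catgctttgtgTTACATCAgctgcctggca
SLC6A15, chr5:97093044-97093073, rose in piPSCs: gggcgggccgggCACGTGggcgcctccgtc
SLC7A2, chr17:5191804-5191833, rose in piPSCs: caagcgcacgccCACGTGtgccaccgctcg
SLC7A11 held the motif in both orientations, 46 and 27 bases before its start, and SLC6A9 held 1 copy at 281 bases. The stretches of SLC7A11, SLC6A15 and SLC7A2 lie inside the gene as the expression table places it, which starts further upstream than RefSeq does. The distance between the starts is 53 bases for SLC7A11, 250 for SLC6A15 and 69708 for SLC7A2. The stretch of SLC7A2 is thus far from the start of the gene whose values are given here. A match is a description of the letters and not a bound site.

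SLC3A2 (ENSSSCG00000022404, chromosome 2 from 8892245 to 8899248), the heavy chain CD98hc that carries most exchanger light chains to the membrane, was the most abundant member in all 6 libraries. Its level was 162, 282 and 173 FPKM in PEF5, PEF7 and PEF8, and 128, 182 and 152 FPKM in piPSC5, piPSC7 and piPSC8. The groups overlapped, and the log2 change was -0.38 (SE 0.26, limma adjusted p = 0.248). Its light chains did not move together. SLC7A11 (ENSSSCG00000022649, chromosome 8 from 88608030 to 88734637), the cystine and glutamate exchanger that supplies cysteine for glutathione, stood at 15.6, 19.3 and 11.1 FPKM in PEFs and at 4.04, 3.54 and 2.26 FPKM in piPSCs. Every piPSC library was below every PEF library, and SLC7A11 fell by 1.92 on the log2 scale (SE 0.27, limma adjusted p = 0.00193). SLC7A5 (ENSSSCG00000032996, chromosome 6 from 1545941 to 1574285), the leucine exchanger LAT1, was at 43.9, 62.6 and 10.5 FPKM in PEFs and at 85.6, 90.4 and 128 FPKM in piPSCs. Here too the groups did not overlap, with the piPSCs higher, but PEF8 stood far below the other PEFs and SLC7A5 was not called (log2 fold change 1.65, SE 0.61, limma adjusted p = 0.0597). Without PEF7 it was called, at 2.15 and an adjusted p of 0.0339, and without both libraries of line 8 its log2 fold change was 0.74. SLC7A6, an exchanger of arginine and glutamine, was at 2.96, 1.71 and 2.90 FPKM in PEFs and at 6.42, 4.23 and 7.76 FPKM in piPSCs. SLC7A6 rose by 1.01 (SE 0.28, limma adjusted p = 0.0221), just over the 2-fold threshold, and the call was lost without PEF7 (0.83), piPSC5 (0.96), piPSC8 (0.84) or line 8 (0.93). SLC7A6 also lost the call after rescaling to the median ratio (0.80) or an equal sum (0.87) and with quantile normalization (0.94). It shares positions with SLC7A6OS on the opposite strand and with NFATC3, and the library kit does not mark strand; SLC7A6OS itself was not called, at 0.40.

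The summed level of the light chains lay closer to that of SLC3A2 in piPSCs than in PEFs. The summed FPKM of SLC7A5, SLC7A6, SLC7A7, SLC7A8, SLC7A10 and SLC7A11 was 0.414, 0.302 and 0.157 of that of SLC3A2 in PEFs, and 0.768, 0.581 and 0.919 in piPSCs. SLC7A5 made up 65.5%, 73.6% and 38.9% of the light chain sum in PEFs and 87.1%, 85.3% and 91.7% in piPSCs. SLC7A11 made up 23.3%, 22.7% and 40.9% in PEFs and 4.11%, 3.34% and 1.62% in piPSCs. Neither share overlapped between the groups. No test is given for these ratios, since the smallest p of an exact permutation test is 0.1 with 3 libraries against 3.

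**Figure D2:**
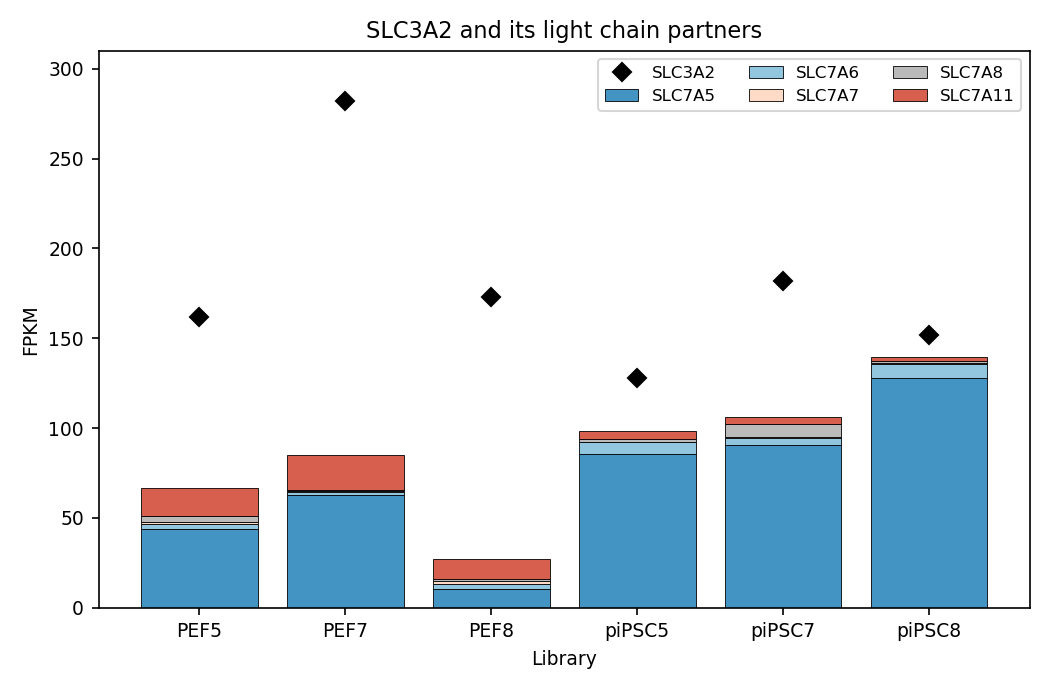
FPKM of SLC3A2 (diamonds) and of its light chain partners (stacked bars) in each library; SLC7A10, at no more than 3 fragments in every library, is left out. The light chain sum is 27.1 to 85.0 FPKM in PEFs and 98.2 to 139 FPKM in piPSCs, and the part of SLC7A11 is smaller in each piPSC bar.

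SLC7A9 (ENSSSCG00000022948, chromosome 6 from 42664352 to 42706762) rose by a like amount in every line. It is the light chain of the cystine and dibasic amino acid carrier of kidney and gut, and pairs there with the other heavy chain, SLC3A1. SLC7A9 stood at 0.885, 0.852 and 0.735 FPKM in PEFs and at 12.3, 8.92 and 9.55 FPKM in piPSCs, from 79 to 112 fragments in PEFs and from 746 to 1311 in piPSCs. It was higher in every piPSC library, with a log2 change of 2.61 (SE 0.20, limma adjusted p = 0.000320), and of 2.42 to 2.82 within lines. The value rests on the pseudocount of 1, and was 3.48 with a pseudocount of 0.1 and 3.62 with voom. Its partner SLC3A1 had 0, 0 and 1 fragments in the piPSCs, where 3 fragments would be 0.0803 to 0.110 FPKM, and 1, 0 and 24 in the PEFs. SLC7A9 overlaps the last bases of a gene known only as ENSSSCG00000002857 on the opposite strand. SLC7A10, its neighbour 293 kb away on chromosome 6, had at most 3 fragments in any library.

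The cationic group of SLC7, named for carriers of amino acids such as arginine and lysine, had 3 tested members. Of these, 2 rose (66.7%, beside 20.2% of all tested genes). SLC7A1, the main arginine carrier of most dividing cells, was at 20.5, 18.0 and 4.97 FPKM in PEFs and at 38.9, 25.8 and 48.4 FPKM in piPSCs. The groups did not overlap, and SLC7A1 rose by 1.48 (SE 0.52, limma adjusted p = 0.0498). That call was held in 2 of the 16 alternative fits, was lost with the line as a replicate block (adjusted p = 0.0829), and of the fits without 1 library only the one without PEF5 kept it. The log2 fold change was 0.89 without PEF8, 0.69 without line 8 and 1.28 to 1.73 without PEF7 or a piPSC library. SLC7A2, an inducible carrier of the same substrates, stood at 0.591, 0.332 and 0.315 FPKM in PEFs and at 3.69, 2.38 and 1.83 FPKM in piPSCs. All piPSC libraries were higher, and SLC7A2 rose by 1.34 (SE 0.26, limma adjusted p = 0.00664). SLC7A4, a related protein of uncertain transport activity, stood at 0.266, 1.23 and 4.36 FPKM in PEFs and at most at 0.186 FPKM in piPSCs, and was not called (-1.19, SE 0.52, limma adjusted p = 0.0927). Without PEF5 it was, at -1.68 and an adjusted p of 0.0290. SLC7A7, a light chain that exchanges arginine, stood at 0.873, 0.705 and 1.81 FPKM in PEFs and at 0.237, 0.243 and 0.222 FPKM in piPSCs. Its groups did not overlap, and it was not called (-0.75, SE 0.27, limma adjusted p = 0.0525), but was with voom (-2.08, adjusted p = 0.0247) and in 2 other alternative fits. SLC7A7 overlaps MMP14, MRPL52 and OXA1L on the opposite strand.

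Of the SLC1 carriers of glutamate and small neutral amino acids, 3 of the 5 tested (60.0%) rose, beside 20.2% of all tested genes, and all 3 lost the call without line 8. The count of SLC1 members that fell was 0 in the limma fit, at an unadjusted p under 0.05 and with voom. SLC1A3, a glutamate and aspartate carrier best known from glia, stood at 1.15, 1.65 and 0.327 FPKM in PEFs and at 6.11, 2.93 and 4.73 FPKM in piPSCs. Every piPSC was higher, and SLC1A3 rose by 1.47 (SE 0.35, limma adjusted p = 0.0136), a call lost without piPSC5 (1.27, adjusted p = 0.0501) and without line 8 (1.15, adjusted p = 0.0645). SLC1A1, which carries glutamate and cysteine, stood at 0.952, 0.233 and 1.35 FPKM in PEFs and at 2.26, 9.91 and 3.44 FPKM in piPSCs. The rise was mostly in line 7, and SLC1A1 had a log2 change of 1.60 (SE 0.49, limma adjusted p = 0.0334) that was not past the threshold with the replicate block (adjusted p = 0.0708). That call was also lost without PEF5 (1.67), PEF7 (1.34), PEF8 (1.80), piPSC7 (1.09) or piPSC8 (1.74), with adjusted p of 0.0514 to 0.103, and without line 8 (1.94, adjusted p = 0.0690). SLC1A1 overlaps SPATA6L on the opposite strand.

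SLC1A4, an exchanger of alanine, serine and cysteine, stood at 8.60, 13.9 and 3.92 FPKM in PEFs and at 18.6, 20.5 and 17.7 FPKM in piPSCs. The piPSCs lay close together and above all PEFs, with a log2 change of 1.16 (SE 0.39, limma adjusted p = 0.0436). Without PEF8 it was 0.73, and leaving out any single library other than PEF7 ended the call, with log2 fold changes of 0.73 to 1.22. It was 0.78 without line 8. SLC1A4 also lost the call after rescaling to the median ratio (0.91) or an equal sum (0.92). The same held with quantile normalization (1.11, limma adjusted p = 0.0539) and with no filter (1.16, limma adjusted p = 0.0723). SLC1A5, the glutamine exchanger ASCT2 and the most abundant SLC1 member, stood at 122, 181 and 30.9 FPKM in PEFs and at 117, 153 and 127 FPKM in piPSCs. Its groups overlapped, it was not called (0.57, limma adjusted p = 0.458), and its log2 fold change was -0.17 without PEF8 and -0.15 without line 8. SLC1A6, a glutamate carrier best known from cerebellum, ranged from 4.48 to 10.0 FPKM in PEFs, and stood at 0.0270, 2.70 and 5.46 FPKM in piPSC5, piPSC7 and piPSC8. It was not called, and the piPSC8 value lay within the PEF range.

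PEF8 was the lowest PEF for several of these abundant uptake genes. Of the 34 tested members, 18 (52.9%) had their lowest PEF value in PEF8, against 33.5% of all tested genes. Of the 10 tested genes listed as factors that act on transporter genes, 3 had their lowest PEF value in PEF8, and MYC was among them. MYC was at 50.9 and 58.9 FPKM in PEF5 and PEF7 and at 6.95 FPKM in PEF8. In the piPSCs, MYC stood between 0.267 and 1.42 FPKM. How fragments of the lentiviral MYC were counted is not given in the sources used here. The part of MYC or of any other factor in the transporter levels was not tested.

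The SLC6 family, which holds carriers of neurotransmitters, glycine, creatine and neutral amino acids, contained the largest fitted change of the tested members in each direction. SLC6A17 (ENSSSCG00000006811, chromosome 4 from 109918601 to 109974258), a neutral amino acid carrier of synaptic vesicles, stood at 18.7, 15.9 and 19.4 FPKM in PEFs and at 0.591, 0.221 and 0.0133 FPKM in piPSCs. In fragments, this was 2283, 1825 and 2012 against 61, 18 and 1. SLC6A17 fell by 3.92 (SE 0.23, limma adjusted p = 0.000179) and the log2 ratios within lines were -3.63, -3.79 and -4.33. With piPSC levels this low the pseudocount of 1 sets the size, which was -5.94 with a pseudocount of 0.1 and -6.95 with voom. SLC6A15 (ENSSSCG00000000936, chromosome 5 from 97092947 to 97151922), a plasma membrane carrier of branched-chain amino acids and proline, stood at 1.35, 4.32 and 0.233 FPKM in PEFs and at 18.1, 8.61 and 34.0 FPKM in piPSCs. The piPSCs were all higher, and SLC6A15 rose by 2.90 (SE 0.65, limma adjusted p = 0.0108), or by 3.77 with a pseudocount of 0.1 and 3.90 with voom. The size differed between lines, at 3.02, 0.85 and 4.83 in lines 5, 7 and 8, and without line 8 it was 1.94 (adjusted p = 0.0464).

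The glycine and creatine carriers of this family were lower in piPSCs. SLC6A9, the glycine carrier GLYT1, stood at 9.17, 18.4 and 8.40 FPKM in PEFs and at 1.89, 3.69 and 0.925 FPKM in piPSCs. All piPSCs were lower, and SLC6A9 fell by 2.05 (SE 0.42, limma adjusted p = 0.00755). SLC6A8, the creatine carrier, stood at 60.7, 59.5 and 43.5 FPKM in PEFs and at 29.7, 16.3 and 17.1 FPKM in piPSCs. Again no value overlapped, and SLC6A8 fell by 1.37 (SE 0.27, limma adjusted p = 0.00634). SLC6A8 lies on the X chromosome, and without line 8 its log2 fold change was -1.41. Both genes overlap a gene on the opposite strand, CCDC24 for SLC6A9 and BCAP31 for SLC6A8. SLC6A6, the taurine carrier, ranged from 6.07 to 10.3 FPKM in PEFs and from 5.70 to 6.45 FPKM in piPSCs, and was not called (-0.37, limma adjusted p = 0.192). The proline carriers SLC6A7 and SLC6A20 were also not called (-0.68 and 0.27, limma adjusted p = 0.263 and 0.358), and SLC6A7 was over 1 FPKM only in PEF8. SLC6A12, a betaine and GABA carrier, stood at 4.22, 0.143 and 4.96 FPKM in PEFs and at most at 0.0801 FPKM in piPSCs, and was not called (-1.64, adjusted p = 0.0658) unless PEF7 was left out (-2.40, adjusted p = 0.00242).

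Among the remaining carriers, those of the SLC36, SLC38 and SLC43 families that were called all fell. SLC43A2, which lets large neutral amino acids such as leucine pass without use of the sodium gradient, stood at 8.72, 9.56 and 12.3 FPKM in PEFs and at 2.66, 1.77 and 1.89 FPKM in piPSCs. SLC43A2 was lower in every piPSC library and fell by 1.85 (SE 0.22, limma adjusted p = 0.00103). SLC36A4, a carrier of proline and tryptophan, stood at 18.7, 13.9 and 19.2 FPKM in PEFs and at 6.81, 5.44 and 7.12 FPKM in piPSCs. All lines were lower by a like amount, with log2 ratios of -1.34, -1.21 and -1.32, and the fitted log2 change was -1.29 (SE 0.20, limma adjusted p = 0.00254). SLC38A6, a less studied member of the glutamine carrier family, stood at 12.2, 12.1 and 10.9 FPKM in PEFs and at 3.01, 2.98 and 3.03 FPKM in piPSCs. It had the lowest SE of the called members and fell by 1.67 (SE 0.16, limma adjusted p = 0.000554).

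SLC36A1, a proton-coupled carrier of lysosomes and gut, ranged from 3.37 to 4.11 FPKM in PEFs and from 2.13 to 3.61 FPKM in piPSCs and was not called (-0.30, limma adjusted p = 0.282). The abundant SLC38 carriers were not called either. SLC38A2, the system A carrier of alanine and glutamine that cells raise when amino acids are scarce, stood at 78.7, 79.0 and 92.4 FPKM in PEFs and at 89.4, 45.5 and 66.1 FPKM in piPSCs, with a log2 change of -0.36 (limma adjusted p = 0.267). SLC38A10 stood at 60.2, 99.2 and 44.0 FPKM in PEFs and at 58.7, 52.7 and 59.3 FPKM in piPSCs, and its log2 fold change of -0.17 became 0.14 without PEF7. SLC38A5, a carrier of glutamine, histidine and glycine on the X chromosome, stood at 22.5, 50.9 and 9.87 FPKM in PEFs and at 37.0, 36.0 and 36.9 FPKM in piPSCs. The PEFs enclosed the piPSCs, and SLC38A5 was not called (0.67, limma adjusted p = 0.312), except in the fit without PEF7 (1.24, adjusted p = 0.0350). It overlaps FTSJ1 on the opposite strand. SLC38A9, the lysosomal carrier that reports arginine to mTORC1, was at 2.94, 2.48 and 2.47 FPKM in PEFs and at 3.48, 2.65 and 3.67 FPKM in piPSCs, a log2 change of 0.23 (limma adjusted p = 0.368). It was -0.02 after rescaling to an equal sum, so that no direction can be given for it.

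The plot of fold changes shows the tested members by family. Beside 20.2% higher and 16.7% lower over all tested genes, 3 of 5 tested SLC1 members rose, 1 rose and 3 fell of 9 in SLC6, and 4 rose and 1 fell of 9 in SLC7. The other calls were 1 member that fell of 7 in SLC38, of 2 in SLC36 and of 1 in SLC43. Summed over members, SLC7 stood at 37.5 to 105 FPKM in PEFs and 143 to 199 FPKM in piPSCs, and SLC6 at 86.4 to 111 FPKM in PEFs and 46.6 to 59.7 FPKM in piPSCs, without overlap. The sum over all 49 members was 537 to 976 FPKM in PEFs and 709 to 809.9 FPKM in piPSCs, and overlapped.

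**Figure D3:**
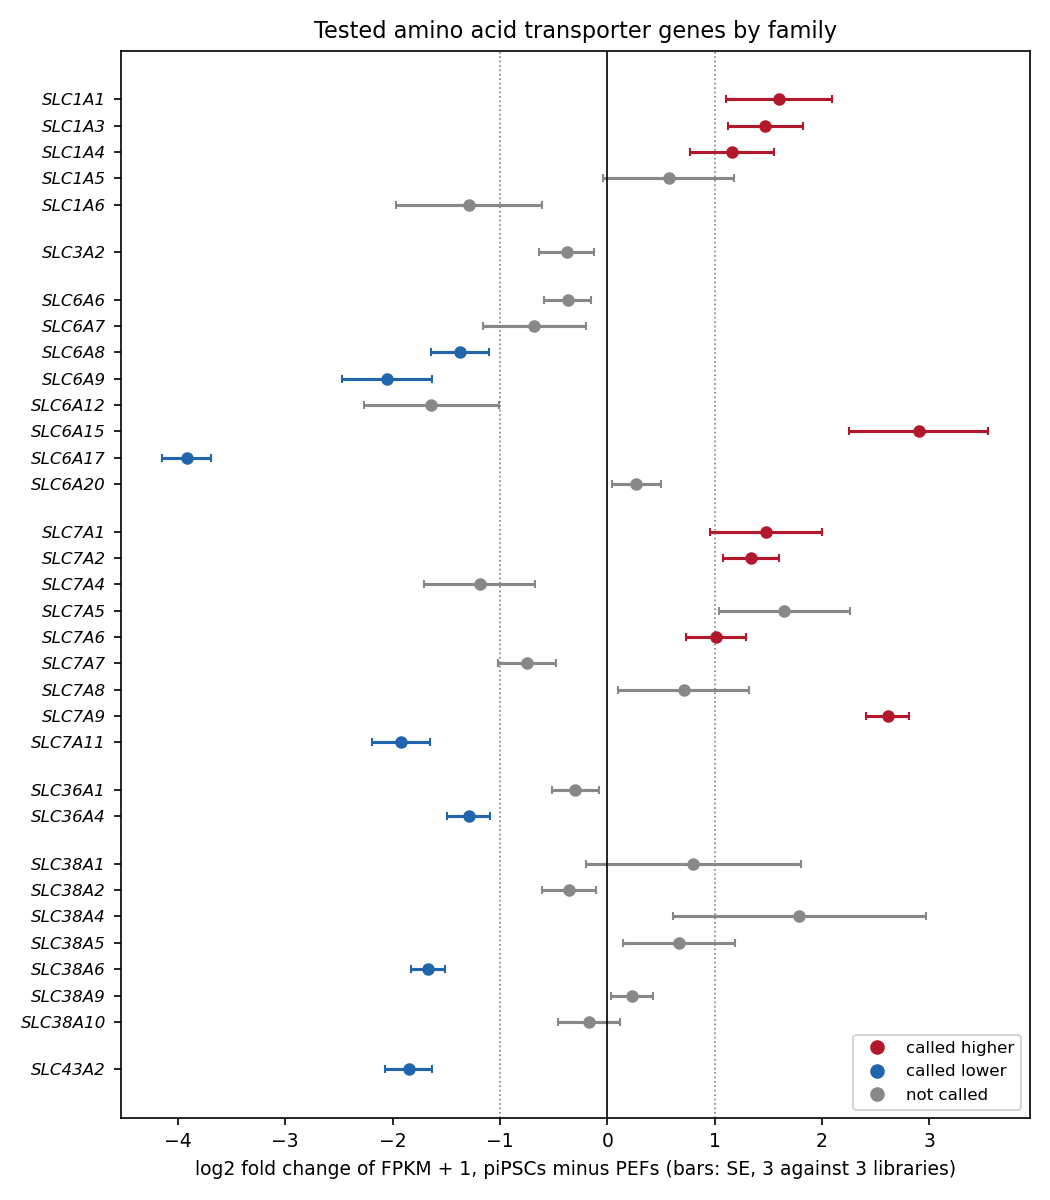
Log2 fold change of FPKM + 1 in piPSCs against PEFs for 33 of the 34 tested members, by family, with bars for the SE of the limma fit (3 against 3 libraries) and dotted lines at 2-fold. Members that rose are red, those that fell blue and the rest grey; SLC6A17 lies at -3.92 and SLC6A15 at 2.90.

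Within lines, each piPSC library was set against its own PEF library. A pair of members, SLC7A2 and SLC7A9, were at least 2-fold higher in all 3 lines, a share of 5.88% against 12.8% of all tested genes. That count of 2 was 6 when line 7 was left out and 5 with a pseudocount of 0.1. All 7 members that fell were at least 2-fold lower in all 3 lines, which is 20.6% against 11.9%, and that count was 8 without line 7 and 10 with a pseudocount of 0.1. In the map of line ratios, SLC7A9 (2.42 to 2.82), SLC7A6 (0.90 to 1.17) and SLC7A2 (1.11 to 1.56) rose by like amounts in the 3 lines, and the other 5 members that rose did so less evenly, as SLC6A15 did (0.85 to 4.83).

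**Figure D4:**
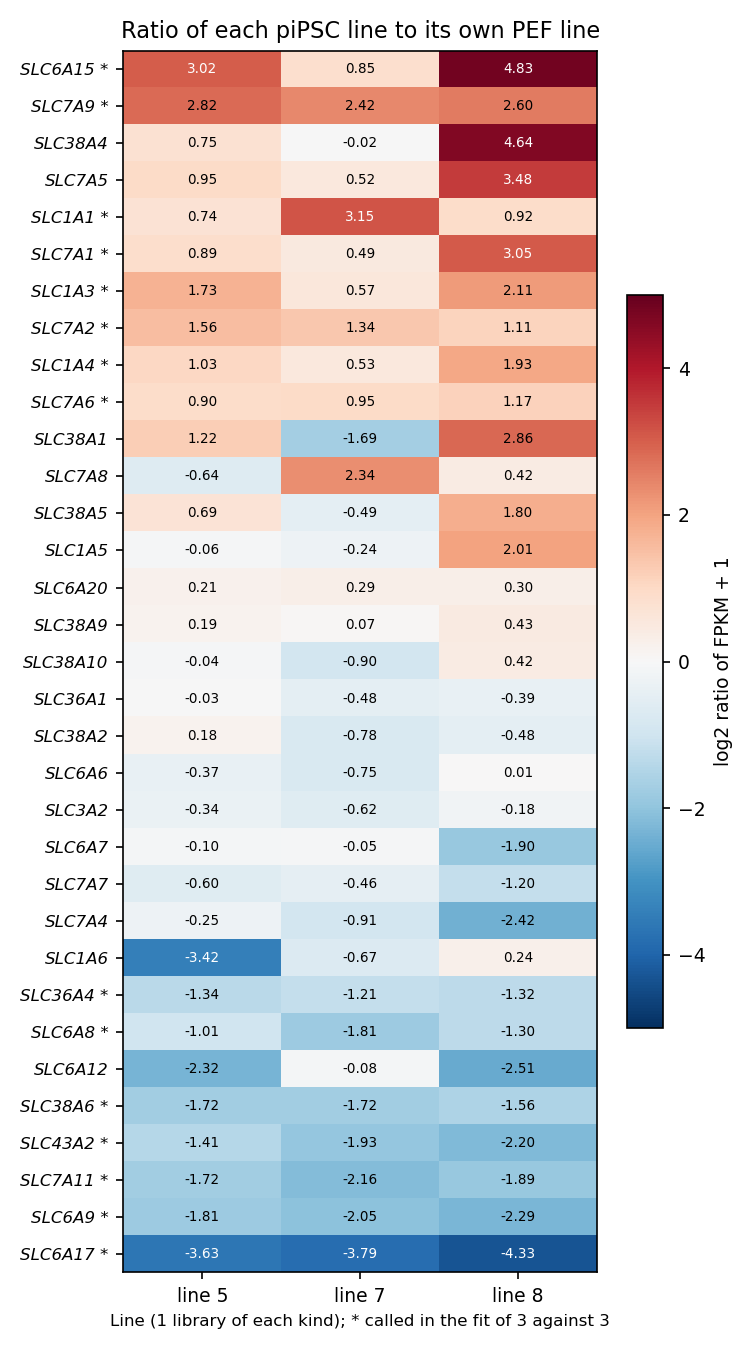
Log2 ratio of FPKM + 1 of each piPSC library to the PEF library of the same line, for 33 of the 34 tested members in the order of their fitted fold change. Asterisks mark called members. The 7 called at the bottom are blue in all 3 columns, while SLC38A4, SLC38A1, SLC7A8 and SLC1A6 change mainly in 1 line or in opposite directions.

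A few members differed mainly by line, and these were picked after their values were seen. SLC38A4, a system A carrier best known from liver and placenta, was read from 4, 1 and 11 fragments in PEFs and from 51, 0 and 1356 in piPSC5, piPSC7 and piPSC8, so that it reached 28.1 FPKM in piPSC8 only. It was not called (1.79, limma adjusted p = 0.240), and without piPSC8 its log2 fold change was 0.31. SLC38A1, a system A carrier that lies near it on chromosome 5, stood at 8.17, 5.57 and 3.43 FPKM in PEFs and at 20.4, 1.04 and 31.2 FPKM in piPSCs. SLC38A1 was not called (0.80, limma adjusted p = 0.527), but was without piPSC7 (2.03, adjusted p = 0.00946), and without line 8 its log2 fold change was -0.23. SLC38A2 lies between these genes, 55.1 kb from SLC38A1 and 284 kb from SLC38A4, and differed less between piPSC lines.

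Another carrier was highest in piPSC7. SLC7A8, the neutral amino acid exchanger LAT2, was at 7.60 FPKM in piPSC7, 1.97 and 1.32 FPKM in piPSC5 and piPSC8, and 0.695 to 3.62 FPKM in PEFs. It was not called (limma adjusted p = 0.360). Of 5 neural markers, 4 were analysed, and their sum was 64.0 FPKM in piPSC7, 21.6 and 12.2 FPKM in piPSC5 and piPSC8 and 16.9 to 26.7 FPKM in PEFs. TUBB3 made up 58.8 FPKM of the sum in piPSC7, while PAX6 (5.00 FPKM) was under its level in PEF7 (5.20 FPKM), and MAP2 (0.251 FPKM) and NCAM1 (0.0252 FPKM) were under every PEF. Of 5 muscle markers, 3 were analysed, with a sum of 14.2 FPKM in piPSC7 and 0.0404 to 2.51 FPKM elsewhere. In piPSC7 that sum was DES alone, and MYOD1 and MYF5 were at 0 in every piPSC library. Their part in these values was not tested.

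Of the 15 members under the filter, 6 had at most 3 fragments in every library. These were SLC6A3, SLC7A10, SLC7A14, SLC36A2, SLC38A8 and SLC43A1. SLC6A5, the neuronal glycine carrier GLYT2, was read from 81, 155 and 1 fragments in PEFs but 0 in every piPSC library. SLC38A3, a glutamine carrier of liver and brain, had 8, 9 and 19 fragments in PEF5, PEF7 and PEF8 but only 0, 0 and 1 in the piPSC libraries. SLC1A7, a glutamate carrier of retina, was read from 1, 0 and 0 fragments in PEFs but from 12, 14 and 9 in piPSCs. The other 6, which were SLC1A2, SLC3A1, SLC6A4, SLC6A14, SLC7A3 and SLC38A11, had at most 54 fragments in any library.

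Genes that sense and use amino acids were read from lists. Of 25 tested genes of the amino acid response around ATF4, 4 rose (16.0%, beside 20.2% of all tested genes) and 6 fell (24.0%, beside 16.7%). The median log2 fold change was -0.32, against 0.20 over all tested genes. The list also holds genes that act upstream of ATF4, such as GCN1 among those that rose and EIF2AK3 among those that fell. ATF4 itself was at 109.9, 132 and 120.4 FPKM in PEFs and at 66.1, 126 and 87.4 FPKM in piPSCs, and was not called (-0.42, limma adjusted p = 0.195). The stress regulators NUPR1 (-5.72), CEBPB (-3.54), TRIB3 (-2.80) and DDIT4 (-2.21) fell. ALDH1L2 (1.63), a mitochondrial folate enzyme, ASNS (1.33), which makes asparagine, GCN1 (1.25), which activates the amino acid sensor kinase GCN2, and XPOT (1.06), which exports tRNA, rose. Of these, ALDH1L2, ASNS and XPOT lost the call without PEF8, at 1.52, 0.85 and 0.79. ALDH1L2 also lost it without any other single library but piPSC8 (1.27 to 1.72), ASNS without any but PEF7 (0.85 to 1.39), and XPOT without piPSC5 (1.02) or piPSC8 (0.94). Without both libraries of line 8, ASNS (0.91, limma adjusted p = 0.0888) and XPOT (0.67, limma adjusted p = 0.0623) were not called. Of the 25 genes, 17 (68.0%) had their lowest PEF value in PEF8, against 33.5% of all tested genes.

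Of 32 tested genes by which mTORC1 reads amino acids, 1 rose (3.12%) and 2 fell (6.25%), under the shares over all tested genes, with a median of 0.21, and voom called 4 higher and 2 lower. CASTOR1, the arginine sensor that inhibits mTORC1, stood at 38.3, 24.4 and 24.9 FPKM in PEFs and at 4.27, 3.89 and 2.97 FPKM in piPSCs, and fell by 2.66 (SE 0.23, limma adjusted p = 0.000437). LAMTOR1, which anchors the complex at the lysosome, fell by 1.12, and its log2 fold change of -0.99 without piPSC8 and of -0.96 without line 8 was under 2-fold. RPTOR, a subunit of mTORC1, rose by 1.01, and lost the call without PEF8 (0.75), piPSC5 (0.88), piPSC8 (1.00) or line 8 (0.73).

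Of 25 tested enzymes that make and break down glutamine, glutamate and glutathione, 8 rose (32.0%, beside 20.2% of all tested genes), with a median of 0.61. In the limma fit, 0 of them fell, against 3 lower at an unadjusted p under 0.05 and 0 with voom. GGCT, an enzyme of glutathione breakdown, rose by 3.06 (limma adjusted p = 0.00274), and GPT2, which makes alanine from glutamate in mitochondria, by 2.60 (limma adjusted p = 0.00334). The proline synthesis enzymes PYCR3 and ALDH18A1 rose by 2.02 and 1.73. The list of carriers of amino acids and peptides in other families had 16 tested genes. Among them was SLC7A6OS, which is not a carrier and was not called. Of the 16, 8 rose (50.0%, beside 20.2% of all tested genes) and 3 fell (18.8%, beside 16.7%), with a median of 0.73. The mitochondrial carriers SFXN2 (1.79), SLC25A15 (1.75), SLC25A22 (1.57) and SLC25A39 (1.46) rose, while the lysosomal carriers SLC15A3 (-2.59) and CTNS (-2.31) and the mitochondrial SLC25A38 (-1.24, and -0.99 without line 8) fell.

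Of 10 tested genes listed as factors that act on transporter genes, 6 fell (60.0%, beside 16.7% of all tested genes), with a median of -1.74. In the limma fit, 0 of them rose, against 1 higher at an unadjusted p under 0.05 and 0 with voom. The list also holds genes that act on proteins, which are KEAP1, NEDD4, RNF5 and NEDD4L, the last among the 6 that fell. MYC fell by 3.98 (SE 0.78, limma adjusted p = 0.00634), a call lost with voom (-5.16, adjusted p = 0.0661). The piPSCs carried lentiviral MYC, and how its fragments were counted is not given, so total MYC cannot be read from this value. NFE2L1 fell by 2.67, MYCL by 2.23 and NFE2L2, the NRF2 factor that acts on SLC7A11 and other antioxidant genes, by 1.76 (limma adjusted p = 0.000530). NFE2L2 stood at 108 to 122 FPKM in PEFs and at 28.7 to 40.4 FPKM in piPSCs. KEAP1, which restrains NRF2, was also lower, at -0.99 (limma adjusted p = 0.00414). It was just under 2-fold and was called in 8 of 16 alternative fits. Over the 5 lists, rescaling to the median ratio left 12 genes higher in place of 20. The plot of lists sets these genes beside the transporters.

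**Figure D5:**
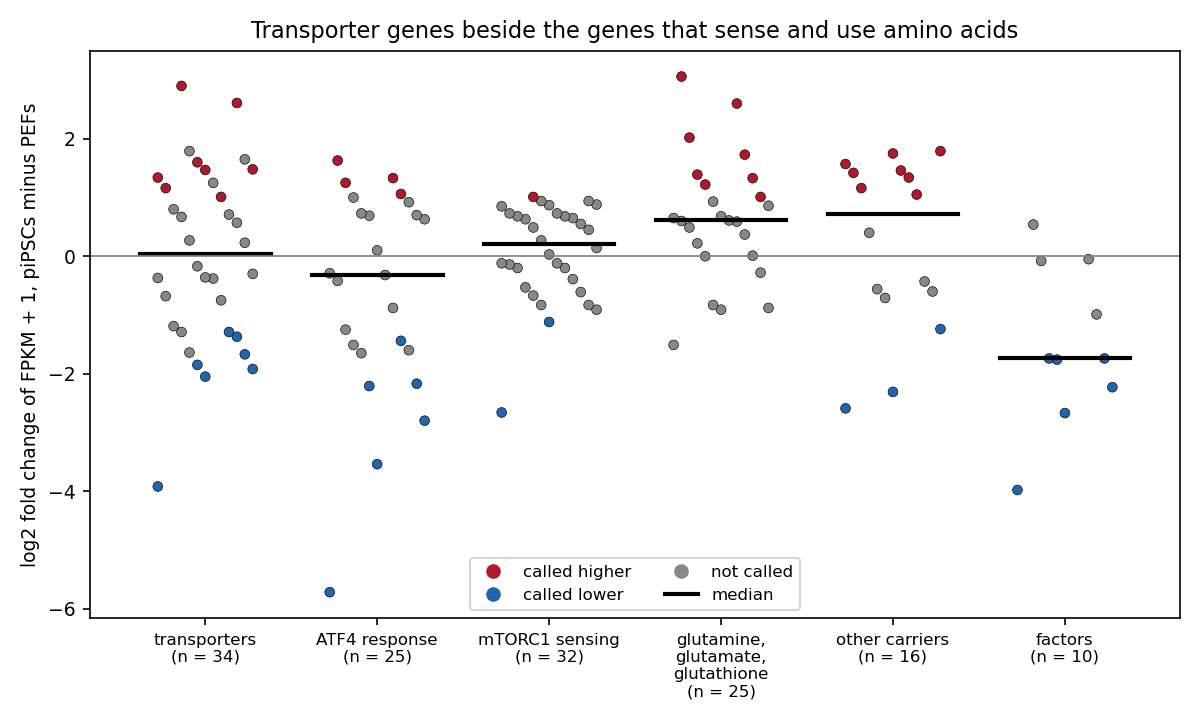
Log2 fold change of FPKM + 1 in piPSCs against PEFs for the tested genes of the transporter families and of 5 lists, with 1 point per gene, the median as a bar, and colours as for called and uncalled genes in the key. The medians run from -1.74 for the factors to 0.73 for the other carriers, beside 0.03 for the transporters.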

How the data were processed

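The authors deposited 1 table of FPKM values per gene for the 6 libraries. The poly-A libraries gave paired reads of 150 bp from a kit that does not mark strand. The submitters' processing notes name Bowtie2 2.2.3, HISAT2 2.1.0 and HTSeq 0.6.0 and the build Sscrofa11.1; how fragments shared between genes were treated is not given in the sources used here. Of 13161 symbols shared with RefSeq, 99.8% lie at overlapping positions. The FPKM values were whole multiples of 1 fragment for 18007 genes (100.0%), which gave the fragments and totals, taken as the smallest numbers possible; such counts and their limits, at 3 fragments for a count of 0, cover counting error only.

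piPSCs were compared with PEFs with limma 3.58.1 (R 4.3.3; eBayes with an intensity trend, two-sided). The fit used log2(FPKM + 1) and left out genes whose mean FPKM was under 0.5, adjustment was by Benjamini-Hochberg over all tested genes, and the fit was tested on simulated data. The threshold for a call was 2-fold with an adjusted p under 0.05. With 1 library per line, p-values measure the spread between these 3 lines. Numbers pair the libraries, because PEF and piPSC libraries of 1 number share an embryo. The correlation of deviations from the group mean was 0.0921, 0.0946 and 0.08 within lines and -0.121 to 0.0553 between lines. Since the study names an unpaired test, a replicate block by line was used as an alternative. The other alternatives were a pseudocount of 0.1, no filter, a mean FPKM of at least 1, 2 rescalings, quantile normalization, no trend, voom, no fold threshold, and leaving out each library; leaving out both libraries of line 8 was added after the values were seen.

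Members, lists and tests were chosen with earlier results of these data known. Members were named where called, where the mean FPKM was at least 20 in either group, or where they were SLC3A2, SLC7A5, SLC7A11, SLC1A5, SLC38A2 or SLC38A9; other named members were picked after their values were seen. Of each list, up to 4 called genes per direction were named, along with ATF4, KEAP1 and genes whose role differs from the title of their list. Promoter windows were read with pysam 0.24.0, in Python 3.11.15. Protein sequences, 2 further piPSC libraries, chromatin and methylation data were not analysed here, and 1 member is not reported by name.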

Additional observations from a re-analysis of the deposited data

How the results depend on the processing

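After libraries were rescaled by the median ratio, to a sum of 1000000 or by quantiles, or with no filter on low values, 5 members were called higher in place of 8, and without both libraries of line 8 the number was 3. Leaving out 1 library gave 4 to 7 members higher and 7 to 8 lower. With the replicate block that pairs libraries by line, 6 members were higher and 7 lower, and SLC1A1 and SLC7A1 lost the call; it changed no other call of a member. Listed genes called higher numbered 12 and 11 under the 2 rescalings and 34 with no fold threshold, in place of 20, and all genes called higher numbered 3763 with no fold threshold in place of 2505. Members at least 2-fold higher in every line numbered 5 with a pseudocount of 0.1, and 1 higher and 1 lower passed 4-fold. Leaving out a line gave 2 to 6 higher and 7 to 8 lower, with 6 higher without line 7. Of 374 fold changes of 22 named members under the alternatives, 326 kept their direction and side of the threshold, 42 lost the call, 2 gained it and 4 changed sign. The changes of sign were SLC1A5 (-0.17 without PEF8, -0.15 without line 8, and up to 1.08 without PEF7), SLC38A10 (0.14 without PEF7, and down to -0.44 without PEF8) and SLC38A9 (-0.02 after rescaling to a sum of 1000000), none of them called; the cause was not tested. Depth limits members with few fragments, and 3 lines limit those that vary between lines.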

Other observations

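A pair of carriers of the same families stands in the table by gene identifier only and so fell outside the rule by name. SLC43A3 (ENSSSCG00000033998), a carrier of purine bases rather than amino acids, was at 9.67, 8.63 and 4.89 FPKM in PEF5, PEF7 and PEF8 and at 21.2, 13.9 and 28.5 FPKM in piPSC5, piPSC7 and piPSC8. It was higher in every piPSC library, with a log2 change of 1.34 (SE 0.33, limma adjusted p = 0.0155). The log2 ratios were 1.06, 0.63 and 2.32 in lines 5, 7 and 8, and the call was lost without line 8 (0.84, adjusted p = 0.0606) and without piPSC5 (1.31, adjusted p = 0.0520). SLC38A7 (ENSSSCG00000040881), a glutamine and asparagine carrier of lysosomes, was at 10.1, 12.4 and 14.1 FPKM in PEFs and at 7.50, 4.41 and 6.21 FPKM in piPSCs. Its groups did not overlap, and its log2 change of -0.92 (SE 0.23, limma adjusted p = 0.0163) was under 2-fold; it was called in 7 of 16 alternative fits.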
